A study of Mus musculus with 4 samples.

Results

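The response of lung cells to B16/F10 melanoma was examined in WT mice, by comparing a library from tumor-bearing lung with a library from normal lung. Each library pooled 3 hashtagged animals, whose cells carry antibody barcodes that tell the animals apart, and the comparison was read in each marker-gated cell type and then across cell types. The 2 WT groups held 4057 cells assigned to an animal (1770 from normal and 2287 from tumor-bearing lung), of 8468 in the whole series. The 4 groups used here were WT lung without tumor, WT lung bearing B16/F10, and the same 2 states in LAIR1KO mice, which lack the collagen-binding inhibitory receptor LAIR1, with 3 animals in each. The labels give no age, strain, number of injected cells or day of harvest. Each group is 1 library, so group and library cannot be told apart.

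B16/F10 is a mouse melanoma line that is widely used to seed tumors in the lung. A lung that carries tumor holds, beside its own alveolar epithelium, capillary endothelium and fibroblasts, neutrophils and interstitial macrophages of the tissue between the airspaces. Interferons made by such cells induce a shared set of antiviral genes in whatever cell senses them, and chemokines such as CCL3 and CCL4 draw leukocytes into the tissue.

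The WT groups were not matched for sex. The X-silencing RNA Xist stood at 0.233 to 0.458 CPM (UMIs per 1000000 UMIs) in the 3 WT normal animals and at 1226 to 1346 CPM in the 3 WT tumor-bearing animals, and Ddx3y, a Y-linked helicase, at 185 to 202 against 0 to 0.968 CPM. Xist showed all LAIR1KO animals to be female. Genes on X, Y and the mitochondrial genome were therefore left out of all counts, but an autosomal effect of sex, of tumor and of the library cannot be told apart in WT. Values from LAIR1KO lung, where both groups were female, stand beside the WT values for this reason. Across both WT libraries 19.2% and 17.9% of filtered cells carried more than 1 hashtag and 23.7% and 28.8% carried none, and these cells were set aside. The loss was uneven: in tumor-bearing lung 53.1% of alveolar type 2-like and 57.9% of fibroblast-like barcodes had no hashtag, and 36.8% of neutrophil-like barcodes were doublets of hashtags. Scrublet marked 18 kept cells as doublets in WT normal and 51 in WT tumor-bearing lung. The libraries shared 3 cell barcodes. Tumor cells themselves were nearly absent: 1 barcode of 4291 in the WT tumor-bearing library passed the melanoma gate, and it had no hashtag.

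Of the 4057 cells, 3581 fell into 6 types with at least 10 cells in every WT animal. Neutrophil-like cells numbered 1059, interstitial macrophage-like cells 777, fibroblast-like cells 745, endothelial-like cells 489, alveolar type 2-like cells 416 and B cell-like cells 95. A further 333 cells fell into types too small to test and 143 passed no gate. Alveolar macrophage-like cells, for example, numbered 2 in normal and 90 in tumor-bearing WT lung, and could not be compared. The names rest on marker genes alone. UMIs per cell were lower in tumor-bearing lung in the larger types: the median per animal was 1927 to 1973 in normal and 1428 to 1586 in tumor-bearing neutrophil-like cells, 12030 to 13900 against 8347 to 8960 in alveolar type 2-like cells, and 4891 to 5803 against 2796 to 3514 in endothelial-like cells. The part of this difference in depth in the results below was not tested beyond thinning the sums.

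The number of genes past the threshold ranged from 79 in neutrophil-like to 0 in B cell-like cells. By edgeR's quasi-likelihood test with Benjamini-Hochberg adjusted p under 0.05, 79 autosomal genes changed in neutrophil-like cells, 41 up (1.20%) and 38 down (1.11%) among 3426 tested (2.31%). In interstitial macrophage-like cells 16 changed, 4 up (0.0549%) and 12 down (0.165%) among 7289 (0.220%), and in alveolar type 2-like cells 12 changed, 8 up (0.110%) and 4 down (0.0552%) among 7240 (0.166%). Fibroblast-like cells gave 6 changes, 3 up and 3 down (0.0369% each) among 8140 (0.0737%), and endothelial-like cells 2, both up, among 7685 (0.0260%). B cell-like cells gave 0 among 866 (0.00%), with 34 genes at an unadjusted p under 0.05 and 1 call by DESeq2. Simulated 2-fold changes were recovered at 59% in neutrophil-like, 49% in interstitial macrophage-like, 52% in endothelial-like and 59% in fibroblast-like cells. In alveolar type 2-like and B cell-like cells they were recovered at 50% and 22%. Simulated 4-fold changes were recovered at 90, 92, 90, 92, 98 and 71% in that order, and 4, 8, 6, 7, 14 and 8 unchanged genes were called. The simulation changed more genes than passed in any type here and left genes of low mean count unchanged. Its rates therefore cannot be read as the recovery of real changes. The counts moved strongly when single animals were left out: to between 22 and 58 in neutrophil-like cells, 3 and 58 in interstitial macrophage-like cells, 1 and 7 in endothelial-like cells, 1 and 4 in fibroblast-like cells, and 6 and 14 in alveolar type 2-like cells. The neutrophil and fibroblast counts moved by over 1.5 times without any WT animal but tumor-bearing replicate 3, and the macrophage count without each of the 6. The endothelial count did so without any but normal replicate 2 and tumor-bearing replicate 1, and the alveolar type 2 count without normal replicate 2 alone.

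The changed genes were mostly called in a single type. Of 108 autosomal genes past the threshold anywhere, 103 passed in 1 type and 5 in more: Scgb1a1 in 4 types, and Ifi27l2a, Card19, Lyz2 and Rpl21 in 2 each. None of these 5 passed in opposite directions in different types, and the other 103 could not. A call in a single type does not show that the response differed between types, and the direct test of that difference, with the animal as a block, passed for 21 of 10306 autosomal genes (0.204%), with 736 at an unadjusted p under 0.05. By limma voom, 25 genes passed the same comparison, 7 of them shared with the 21.

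Neutrophil-like cells of tumor-bearing lung carried more transcripts of interferon-stimulated genes. Of 17 tested members of the list, 6 rose and 0 fell, where 41 of all 3426 genes tested rose (1.20%). The list's median log2 fold change was 0.81, against 0.01 over all genes tested. Of its estimates 16 of 17 were positive, against 1764 of all 3426. Oasl2, an antiviral protein related to the oligoadenylate synthetases, stood at 217, 223 and 186 CPM in the 3 normal animals and at 492, 492 and 526 CPM in the tumor-bearing ones. All tumor-bearing animals lay above all normal ones, and Oasl2 rose by 1.28 ± 0.15 log2 units (SE; adjusted p = 1.41e-05). Here and below, lack of overlap was part of the rule that named the genes of smallest p per type, so for them it is a description only. Ifi27l2a, a small interferon-induced membrane protein, measured 541, 596 and 465 CPM in normal and 1112, 1007 and 1952 CPM in tumor-bearing animals (log2 1.34 ± 0.21, adjusted p = 0.000774). The groups did not overlap, and tumor-bearing replicate 3 was the highest.

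Rtp4, a chaperone of receptors that interferon induces, went from 134, 162 and 80.9 CPM to 233, 319 and 349 CPM (log2 1.30 ± 0.22, adjusted p = 0.00141). Trim30a, a ubiquitin ligase that restrains inflammatory signalling, went from 147, 223 and 226 CPM to 347, 399 and 409 CPM (log2 0.93 ± 0.16, adjusted p = 0.00223). Neither gene's groups overlapped. Ifi204, a sensor of DNA, rose by 1.21 ± 0.25 and Slfn5, of the Schlafen family, by 1.19 ± 0.26 log2 units (adjusted p = 0.0106 and 0.0155). Slfn4, a Schlafen gene of myeloid cells outside the list, stood at 351, 391 and 286 CPM in normal and 765, 711 and 814 CPM in tumor-bearing animals, without overlap (log2 1.16 ± 0.18, adjusted p = 0.000774). Isg15, the ubiquitin-like modifier that interferon induces, was at 698, 685 and 715 against 910, 1133 and 939 CPM and did not pass (log2 0.51, adjusted p = 0.0897). Oas2 and Oas3, enzymes that activate an antiviral RNase, were also among the 41 risen genes (log2 2.02 and 0.98), and are named here after their values were seen. The list's transcripts were unevenly spread over cells: the 10% of cells with the most held 38.29 to 43.78% of the list's UMIs in normal and 35.05 to 40.18% in tumor-bearing animals.

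**Figure D1:**
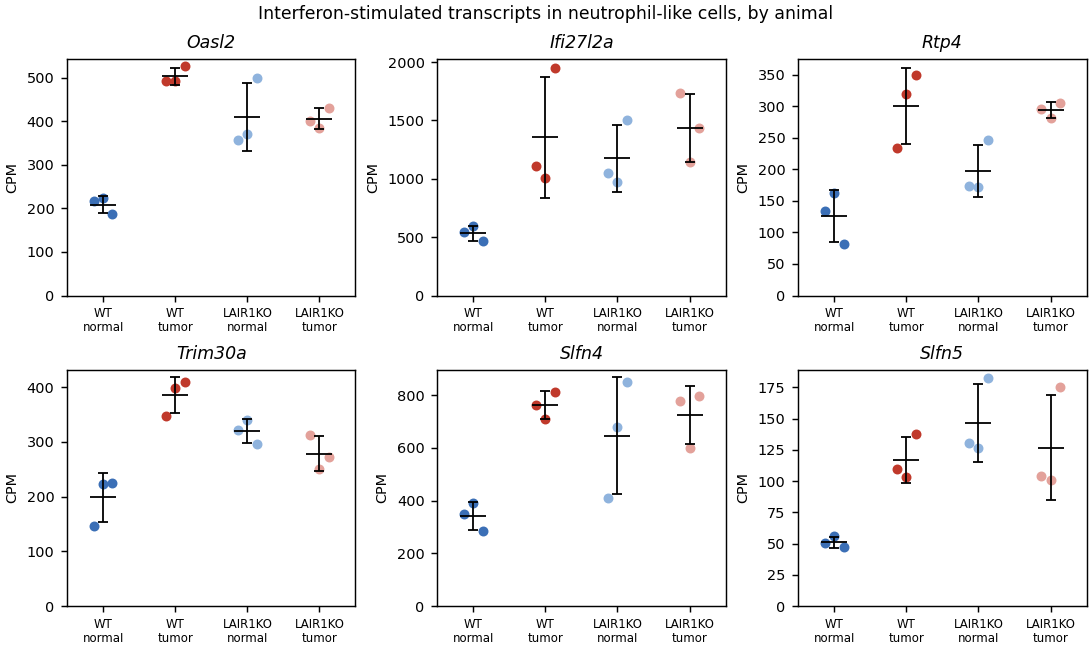
Level of 6 interferon-stimulated transcripts in neutrophil-like cells (y axis, CPM, linear from 0) in each animal (points) of the 4 groups (x axis), with the mean and SD of 3 animals as bars. For Oasl2 the WT normal animals sit between 186 and 223 CPM, below the WT tumor-bearing ones at 492 to 526 CPM, while LAIR1KO normal animals at 357 to 498 CPM and LAIR1KO tumor-bearing ones at 386 to 431 CPM overlap.

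In LAIR1KO lung the same list had a median of −0.04 in neutrophil-like cells and 0 members passed in either direction, where 14 of 3426 genes passed in all (0.409%). The difference between the genotypes' responses passed for 3 of the 17 members, and for 23 of 3426 genes overall (0.671%). For Oasl2 the LAIR1KO difference was −0.04 and the difference between genotypes had adjusted p = 0.00222. The levels show where the groups part. The whole list summed to 34.3, 36.2 and 31.4 UMIs per 10000 in WT normal animals and to 49.3, 52.4 and 64.7 in WT tumor-bearing animals, against 44.2, 45.2 and 63.5 in LAIR1KO normal and 58.5, 51.1 and 61.5 in LAIR1KO tumor-bearing animals. The WT normal animals were below all others in this type. They were also the only males, and sex, tumor and library cannot be told apart here. For 28 of the 41 risen genes the mean of LAIR1KO normal lung lay nearer to that of WT tumor-bearing than of WT normal lung, against 1640 of all 3426 genes tested. Such shares, here and below, are of genes chosen by the same WT levels and are descriptions only.

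The promoters of 4 interferon-stimulated genes that rose are shown because they hold the core of the interferon-stimulated response element, a sequence found before many interferon-induced genes. Each line gives the 250 bases before a RefSeq gene start on the gene's strand, 5′ to 3′ (GRCm38.p6), with matches to a pair of TTTC half-sites with any 2 bases between them, on either strand, in capitals. Overlapping matches were counted and none overlapped another in these 4 windows. Trim30a lies at chr7:104465194-104465443 on the minus strand and Oas3 at chr5:120777660-120777909 on the minus strand. Slfn5 lies at chr11:82951852-82952101 and Ifit1, which rose in endothelial-like cells, at chr19:34640639-34640888, both on the plus strand.
Trim30a: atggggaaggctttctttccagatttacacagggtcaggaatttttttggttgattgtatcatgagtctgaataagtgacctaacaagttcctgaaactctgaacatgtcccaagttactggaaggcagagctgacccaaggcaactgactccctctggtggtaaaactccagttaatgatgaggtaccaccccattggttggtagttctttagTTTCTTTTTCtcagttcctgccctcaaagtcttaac
Oas3: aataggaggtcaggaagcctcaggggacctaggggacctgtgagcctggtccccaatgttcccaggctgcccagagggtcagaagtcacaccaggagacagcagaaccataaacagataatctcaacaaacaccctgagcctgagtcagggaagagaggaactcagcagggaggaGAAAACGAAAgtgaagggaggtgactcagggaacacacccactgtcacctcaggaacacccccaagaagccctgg
Slfn5: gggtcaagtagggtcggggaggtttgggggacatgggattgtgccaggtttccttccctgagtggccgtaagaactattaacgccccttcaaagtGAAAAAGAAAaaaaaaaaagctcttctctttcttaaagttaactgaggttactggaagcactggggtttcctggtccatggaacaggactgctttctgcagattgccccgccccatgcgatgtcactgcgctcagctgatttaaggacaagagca
Ifit1: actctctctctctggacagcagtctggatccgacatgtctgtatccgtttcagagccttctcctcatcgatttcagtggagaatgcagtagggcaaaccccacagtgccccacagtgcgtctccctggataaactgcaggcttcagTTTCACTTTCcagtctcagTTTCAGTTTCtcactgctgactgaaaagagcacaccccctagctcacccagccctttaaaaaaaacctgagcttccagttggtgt
The match begins at position −36 from the start in Trim30a, −75 in Oas3 and −155 in Slfn5, and at −104 and −85 in Ifit1. A second RefSeq start of Trim30a has no match in its window, and the windows of Oasl2 and Slfn4 have none. Of the 41 risen genes 31 had a window and 3 of these held the motif (9.68%). Of the 38 fallen genes 29 had a window and 3 held it (10.3%), against 4.06% of 2831 genes tested in neutrophil-like cells and 3.46% of all 27025 genes in the table. The motif was thus found at about the same share in risen and in fallen genes.

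Transcripts for ribosomal proteins were lower in the same neutrophil-like cells. Of 77 ribosomal protein genes tested, 24 fell and 0 rose, where 38 of all 3426 genes tested fell (1.11%). All 77 had a negative estimate (median −0.53, against 0.01 over all genes), as did 1662 of all 3426. Rpl8, a protein of the large subunit, went from 388, 401 and 414 CPM in normal to 171, 219 and 237 CPM in tumor-bearing animals (log2 −0.93 ± 0.14, adjusted p = 0.000754). Rps7 went from 254, 274 and 258 to 127, 126 and 168 CPM, and Rps3 from 291, 309 and 352 to 167, 189 and 190 CPM (log2 −0.90 and −0.81, adjusted p = 0.00673 and 0.0089), both of the small subunit. Rps25, also of the small subunit, went from 331, 370 and 352 to 246, 213 and 202 CPM (log2 −0.68, adjusted p = 0.012). None of these groups overlapped, which is a description only, since these genes were chosen by the smallest p of their list. Rps7 and Rps25 lost the call without tumor-bearing replicate 2 and Rps3 without normal replicate 3.

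A list of 30 ribosomal protein genes summed to 168, 174 and 177 UMIs per 10000 in WT normal and to 123, 120 and 146 in WT tumor-bearing neutrophil-like cells. In LAIR1KO the sums were 161, 168 and 156 in normal and 163, 175 and 170 in tumor-bearing lung, and the median difference over the 77 genes was 0.14. Here the WT tumor-bearing animals stood below all others. Of the 38 fallen genes, 31 had a LAIR1KO normal mean nearer to WT normal than to WT tumor-bearing lung, against 1786 of all 3426. The count of fallen ribosomal genes rested on the cells and animals used: it was 4 without WT tumor-bearing replicate 2, 11 to 16 without another single animal except tumor-bearing replicate 3 (28), and 3 with a simpler rule for hashtags. At least 75 of these estimates were negative in each fit without a single animal.

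**Figure D2:**
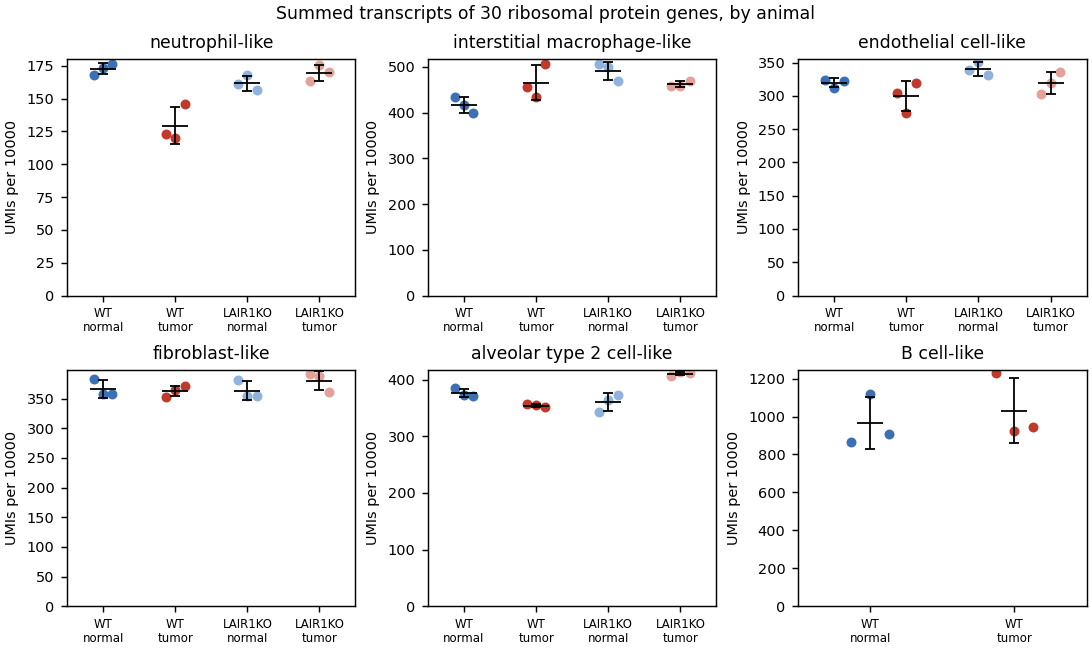
Summed transcripts of 30 ribosomal protein genes (y axis, UMIs per 10000, linear from 0) in each animal (points) by group (x axis) and cell type (panels), with the mean and SD as bars. In neutrophil-like cells the WT tumor-bearing animals at 120 to 146 lie below the other 9 animals at 156 to 177, while in B cell-like cells, shown for WT alone, the groups overlap.

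In the other types few ribosomal protein genes passed. The median over the genes tested was 0.10 in interstitial macrophage-like cells (14 of 82 negative), −0.21 in endothelial-like cells (66 of 81), −0.08 in fibroblast-like cells (61 of 81), −0.14 in alveolar type 2-like cells (68 of 80) and 0.07 in B cell-like cells (18 of 72). Among these, only Rpl21 in alveolar type 2-like cells passed the test, falling by 0.49 log2 units (adjusted p = 0.0113). In that type 12 of 7240 genes passed in all (0.166%). No ribosomal protein gene named above passed the test of a different response between types (adjusted p = 0.307 for Rpl8 and 0.606 for Rps3).

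Other genes that fell in neutrophil-like cells were Psmb8, Hist1h2bc, Ost4 and Card19. Psmb8, a catalytic subunit of the immunoproteasome that trims antigens, went from 96.9, 107 and 109 to 39.6, 36.5 and 64.6 CPM (log2 −1.18 ± 0.25, adjusted p = 0.0122). It was the 1 member of 13 tested in the MHC class I list that passed, where 79 of all 3426 genes did (2.31%). The list did not fall with it: 10 of the 13 estimates were positive, with a median of 0.24 against 0.01 over all genes. The histone gene Hist1h2bc went from 190, 236 and 199 to 123, 130 and 103 CPM (log2 −0.81, adjusted p = 0.0125). Ost4, a subunit of the oligosaccharyltransferase, went from 227, 264 and 260 to 163, 156 and 138 CPM (log2 −0.72, adjusted p = 0.0149). Card19, a mitochondrial protein with a CARD domain, fell in neutrophil-like and in interstitial macrophage-like cells (log2 −0.62 and −0.75, adjusted p = 0.0272 and 0.0359). The groups did not overlap for any of the 4. In neutrophil-like cells Ost4 and Card19 each lost the call without 4 of the 6 WT animals, Psmb8 without 3 and Hist1h2bc without 2. Ngp, a granule gene of immature neutrophils, is listed among the risen genes, but 123 of its 165 UMIs in tumor-bearing lung were in 1 cell. Of the markers of other types in this gate, the non-classical monocyte list was the highest, at 16.79 to 17.41 UMIs per 10000 in normal and 20.04 to 20.97 in tumor-bearing animals, without overlap. That list holds Itgal, which was itself 1 of the 79 genes called in neutrophil-like cells. Whether the list's level came from other cells or from the neutrophil-like cells themselves was not tested, nor was its part in the results. The interstitial macrophage list summed to 2.30 to 3.98 UMIs per 10000 in normal and 2.31 to 3.49 in tumor-bearing animals, and the alveolar type 2 list to 8.04 to 9.28 and 7.29 to 8.71.

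**Figure D3:**
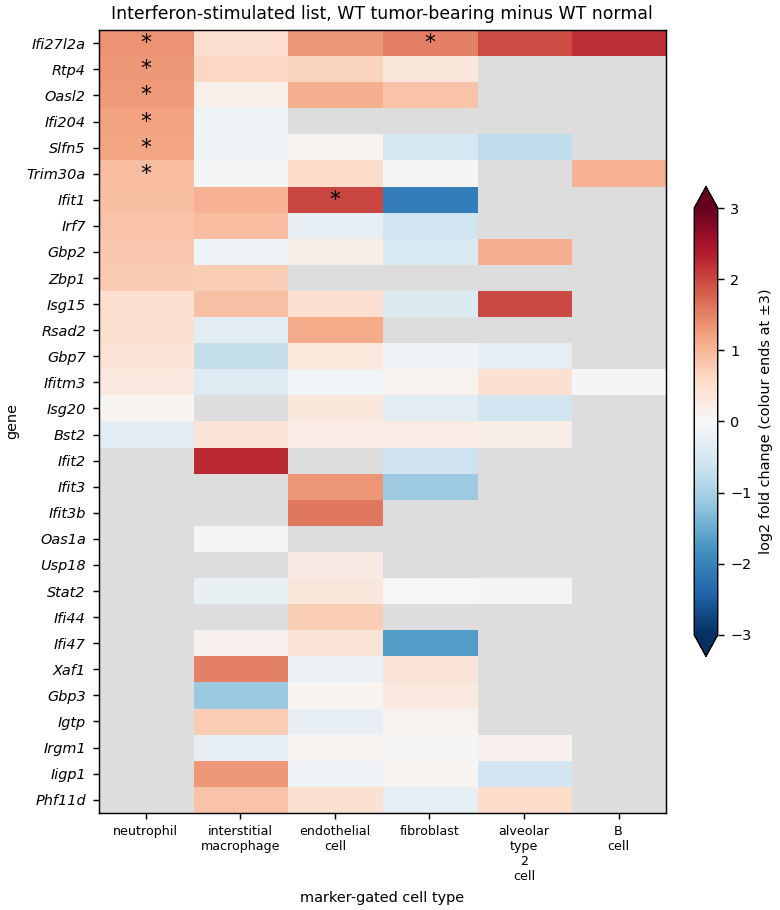
Log2 fold change of WT tumor-bearing against WT normal lung (colour, red higher and blue lower in tumor-bearing) for tested members of the interferon-stimulated list (rows, all but 1) in 6 cell types (columns). Asterisks mark adjusted p under 0.05 and grey marks genes not tested; 6 of the 8 asterisks are in neutrophil-like cells.

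Fewer members of the interferon-stimulated list passed in the other types. Its median was 0.27 over 26 tested members in interstitial macrophage-like cells, 0.34 over 27 in endothelial-like cells, −0.10 over 24 in fibroblast-like cells, 0.12 over 13 in alveolar type 2-like cells and 1.05 over 3 in B cell-like cells. In endothelial-like cells 1 member passed, where 2 of 7685 genes did in all (0.0260%). Ifit1, a protein that binds viral RNA, was at 21.8, 27.6 and 23.7 CPM in normal and 66.1, 97.5 and 119 CPM in tumor-bearing animals, without overlap (log2 1.997 ± 0.31, adjusted p = 0.00687). LAIR1KO normal endothelial-like cells held 77.9, 98.2 and 125 CPM of Ifit1 and LAIR1KO tumor-bearing ones 90.2, 74.5 and 51.5 CPM (difference between genotypes, adjusted p = 0.0197). The WT normal animals were the lowest for this gene. The whole list did not part in that way. Its sums in endothelial-like cells were 45.4, 56.4 and 55.8 UMIs per 10000 in WT normal and 52.7 to 86.9 in LAIR1KO animals. In fibroblast-like cells 1 member passed, where 6 of 8140 genes did in all (0.0737%). Ifi27l2a went from 333, 306 and 291 to 949, 513 and 1193 CPM (log2 1.51 ± 0.27, adjusted p = 0.0274). The fibroblast call was kept without tumor-bearing replicate 2 and lost without each of the other 5 WT animals (adjusted p from 0.110 to 0.211). The endothelial call of Ifit1 was lost without normal replicate 1, normal replicate 3 or tumor-bearing replicate 2 (adjusted p from 0.0613 to 0.114). No member of the list passed in interstitial macrophage-like, alveolar type 2-like or B cell-like cells.

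Whether the interferon response was particular to neutrophil-like cells was tested directly, and none of the 6 risen members passed: the adjusted p of a different response between types was 0.898 for Oasl2, 0.599 for Ifi27l2a, 0.925 for Rtp4, 0.501 for Trim30a, 0.622 for Ifi204 and 0.605 for Slfn5. It was 0.764 for Slfn4, outside the list. The mean response over the 6 types, fitted with limma voom, passed for Ifi27l2a (log2 1.40 ± 0.22, adjusted p = 0.000185), Slfn4 (1.03, adjusted p = 0.0139), Oasl2 (0.86, adjusted p = 0.0161) and Trim30a (0.54, adjusted p = 0.0412). It did not pass for Rtp4 (0.60, adjusted p = 0.113), Ifi204 (0.57, adjusted p = 0.367) or Slfn5 (0.02, adjusted p = 0.981). The mean response passed for 75 of 10306 autosomal genes, 35 up (0.340%) and 40 down (0.388%), together 0.728%. The consensus correlation within an animal was −0.011, so this fit treated sums of different types from 1 animal as nearly independent. Its p-values therefore do not measure the spread between animals alone.

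In interstitial macrophage-like cells 4 genes rose and 12 fell. Fxyd2, a regulator of the sodium pump, had the smallest p: it was at 562, 517 and 299 CPM in normal and 190, 162 and 136 CPM in tumor-bearing animals, without overlap (log2 −1.52 ± 0.19, adjusted p = 0.000526). Thbd, thrombomodulin, which turns thrombin to an anticoagulant role, went from 193, 162 and 228 to 43.8, 96.4 and 66.2 CPM (log2 −1.49 ± 0.22, adjusted p = 0.0026). Protein kinase A's regulatory subunit Prkar2b went from 56.7, 83.5 and 33.5 to 12.5, 21.4 and 15.2 CPM (log2 −1.78 ± 0.30, adjusted p = 0.00998). Lyz2, lysozyme, went from 6539, 7130 and 5318 to 4529, 4281 and 3926 CPM (log2 −0.58, adjusted p = 0.0202). In each of these the tumor-bearing animals lay below all normal ones. Lyve1, the hyaluronan receptor that marks a perivascular subset of these macrophages, and Ednrb, an endothelin receptor, were also among the 12 fallen genes (log2 −1.15 and −1.50, named after their values were seen). They were detected in 155 and 120 of 265 normal and 197 and 135 of 512 tumor-bearing cells, so a change in the mix of cells and a change within cells cannot be told apart. Serpinb2 is called as fallen with 147 UMIs against 0, but 101 of those were in 1 cell.

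Prkcd, a protein kinase C, had the smallest p of the risen genes, at 166, 160 and 148 CPM in normal and 257, 253 and 264 CPM in tumor-bearing animals (log2 0.70 ± 0.12, adjusted p = 0.0121). Cd52, a small surface glycoprotein of leukocytes, went from 344, 290 and 268 to 615, 404 and 632 CPM, and B4galnt1, an enzyme of ganglioside synthesis, from 18.9, 16.2 and 9.85 to 47.6, 41.8 and 45.7 CPM (log2 0.86 and 1.51, adjusted p = 0.0299 for each). The groups did not overlap. None of the 16 genes passed in LAIR1KO, where 0 of 7289 did (0.00%), while the difference between genotypes passed for 57 (0.782%). For 12 of the 16 the LAIR1KO normal mean lay nearer to WT tumor-bearing than to WT normal lung, against 4122 of all 7289 genes. Prkcd, for example, was at 283, 273 and 241 CPM in LAIR1KO normal and 234, 203 and 216 CPM in LAIR1KO tumor-bearing animals, all above the WT normal animals. Fxyd2 was at 218, 191 and 202 CPM in LAIR1KO normal lung, near WT tumor-bearing lung, and higher at 280, 372 and 330 CPM in LAIR1KO tumor-bearing lung. Fxyd2 was called in all 18 alternatives and Thbd in all 17 that gave it a value. The calls of Prkar2b, Prkcd, Lyz2 and Card19 were lost without normal replicate 1 or 2 or tumor-bearing replicate 1 or 3, and those of Cd52 and B4galnt1 without any WT animal but tumor-bearing replicate 2 (adjusted p from 0.0501 to 0.169 over the 6 genes). Markers of other types moved in this gate. The alveolar macrophage list went from between 1.12 and 2.76 UMIs per 10000 in normal to between 3.04 and 4.05 in tumor-bearing animals, while the conventional dendritic cell list went from between 4.33 and 6.81 to between 2.74 and 4.09. The gate's own list went from between 302.6 and 310.0 to between 236.9 and 301.4. None of these 3 ranges overlapped, nor did that of the plasmacytoid dendritic cell list (1.101 to 1.773 against 0.488 to 1.096). The ranges of all other marker lists overlapped in this gate. These lists are named after their values were seen, so the lack of overlap is a description only. Of the clusters named for these macrophages, the smallest held 33 normal and 114 tumor-bearing cells. The part of these shifts in the results was not tested.

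Alveolar type 2-like barcodes, the surfactant-making epithelium, gave the smallest p of a difference between types. Ccl4, a chemokine for T cells and monocytes, was at 10.9, 17.6 and 5.80 CPM in normal and 922, 403 and 346 CPM in tumor-bearing animals (log2 5.55 ± 0.41, adjusted p = 4.25e-07; difference between types, adjusted p = 1e-08). Its neighbour Ccl3 was at 7.79, 5.86 and 8.12 against 127, 89.5 and 46.0 CPM (log2 3.49 ± 0.44, adjusted p = 0.000711). Ccl5, another chemokine of that family, was at 0, 1.17 and 1.16 against 27.5, 87.0 and 30.2 CPM (log2 5.56 ± 0.76, adjusted p = 0.00274). In all 3 genes every tumor-bearing animal lay above every normal one, as the rule for naming genes of smallest p required.

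The other risen genes of this gate were Mgl2, a lectin of macrophages and dendritic cells (log2 5.37 ± 0.81, adjusted p = 0.0036), Cd83, a surface protein of mature antigen-presenting cells (1.66 ± 0.27, adjusted p = 0.00587), the cytokine Il1b (2.43 ± 0.43, adjusted p = 0.0113), and C1qa and C1qb, chains of the complement protein C1q (2.499 and 3.66, adjusted p = 0.0111 and 0.0489). All are transcripts best known from myeloid cells, and all 8 passed the edgeR test of a different response between types (adjusted p from 1e-08 to 0.0427). Only 7 genes passed that comparison by both edgeR and limma voom, so not all of these 8 passed both. Among these 8 were 3 of 12 chemokine, 3 of 21 NF-kappa-B target and 2 of 8 complement genes tested, with 0 fallen in each list. Over all genes tested in this gate, 8 of 7240 rose (0.110%). The lists have 21, 22 and 15 members in all, and Ccl3 and Ccl4 stand in both the chemokine and the NF-kappa-B list. Members that are low in normal lung could be tested through their level in tumor-bearing lung alone, so these counts describe the genes tested and not the lists.

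Few barcodes carried these transcripts. Ccl4 had 952 UMIs in 44 of 227 tumor-bearing cells, 250 of them in 1 cell, against 27 UMIs in 24 of 189 normal cells. Ccl5 had 103 UMIs in 10 cells, 68 of them in 1 cell, and Mgl2 82 UMIs in 8 cells. Ccl4, Ccl3, Ccl5 and Mgl2 kept the call without each single animal. C1qb lost it without any normal animal or tumor-bearing replicate 1, C1qa without normal replicate 2 or 3 or tumor-bearing replicate 1, Il1b without any normal animal and Cd83 without normal replicate 2. Without the cell that held the most, Ccl4 stood at 354 CPM over the tumor-bearing group and 10.1 CPM over the normal group. The 8 interstitial macrophage markers summed to 4.41, 4.68 and 4.29 UMIs per 10000 in normal and 7.003, 5.28 and 6.83 in tumor-bearing alveolar type 2-like barcodes, and the conventional dendritic cell list to 0.0889, 0.0871 and 0.0772 against 1.23, 0.373 and 0.281. The neutrophil list stood at 1.81, 6.25 and 6.46 against 23.1, 1.94 and 2.66. The interstitial macrophage list holds C1qa and C1qb, which are among the 8 risen genes. The shift was not limited to myeloid lists: the fibroblast list stood at 0.441 to 3.61 in normal and 3.33 to 12.05 in tumor-bearing animals, with overlap. Of 17 extracellular matrix genes tested, 15 had a positive estimate (median 1.23) and 0 passed, where 3708 of all 7240 genes were positive. The part of cells of these types in the result was not tested. With Scrublet doublets left out, Ccl4 rose by 4.56 log2 units (adjusted p = 0.0108), and in cells of a stricter marker gate by an estimated 3.69 log2 units, which did not pass (adjusted p = 0.116). In that stricter gate 2 genes rose in all. LAIR1KO tumor-bearing barcodes held 36.5, 66.4 and 34.4 CPM of Ccl4 and LAIR1KO normal ones 16.8, 10.6 and 21.1 CPM (log2 1.33, adjusted p = 0.343; difference between genotypes, adjusted p = 0.0315). The LAIR1KO normal mean was nearer to WT tumor-bearing lung for 0 of the 8 risen and 3 of the 4 fallen genes, against 3741 of all 7240.

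**Figure D4:**
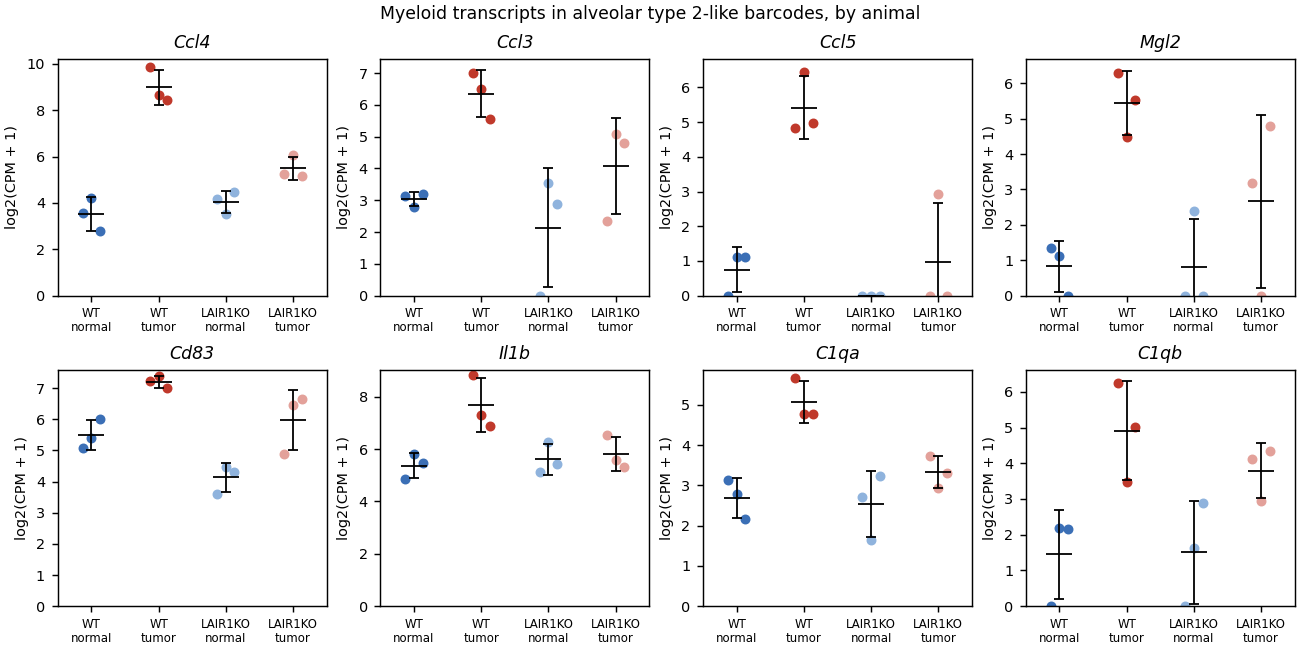
Level of the 8 risen transcripts in alveolar type 2-like barcodes (y axis, log2 of CPM plus 1) in each animal (points) of the 4 groups (x axis), with the mean and SD on that scale as bars. In every panel the 3 WT tumor-bearing animals lie above the 3 WT normal animals, and for Ccl4 they also lie above all LAIR1KO animals.

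Sftpc, the surfactant protein that defines this gate, was lower in tumor-bearing lung, at 142855, 155150 and 155635 CPM in normal and 125005, 123827 and 129678 CPM in tumor-bearing animals (log2 −0.26 ± 0.04, adjusted p = 0.00568). It was higher with tumor in LAIR1KO (log2 0.38, adjusted p = 0.000134), from 100612, 99717 and 110816 to 134945, 133976 and 134584 CPM. As a gate marker it helped to choose these cells. Lyz2, which mouse alveolar type 2 cells also make, went from 17929, 20098 and 19486 to 12976, 15031 and 14920 CPM (log2 −0.42 ± 0.07, adjusted p = 0.00935). Tbx3 and Rpl21 were the other fallen genes. Both Sftpc and Lyz2 had groups without overlap, and Lyz2 lost the call without normal replicate 2 or 3 or tumor-bearing replicate 1. In LAIR1KO lung 238 of 7240 genes passed in this gate (3.29%) and the difference between genotypes passed for 44 (0.608%).

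Few genes passed the test in stromal cells, which does not show that few changed. In fibroblast-like cells Idi1, an enzyme of cholesterol synthesis, went from 45.0, 36.2 and 53.1 to 101, 97.2 and 86.2 CPM (log2 1.04 ± 0.17, adjusted p = 0.014). It also rose in LAIR1KO, from 35.1, 40.6 and 60.7 to 91.3, 104 and 91.7 CPM (log2 1.02, adjusted p = 0.0101). Idi1 was the 1 member of 14 tested cholesterol synthesis genes that passed in WT, with a list median of 0.41, where 6 of 8140 genes passed in all (0.0737%). In LAIR1KO 4 passed with a median of 0.62, where 221 of 8140 genes passed in all (2.71%). Apoe, the lipid carrier, went from 3175, 2826 and 2674 to 2141, 1848 and 1695 CPM without overlap (log2 −0.61 ± 0.11, adjusted p = 0.0388), and its LAIR1KO difference was 0.36 (difference between genotypes, adjusted p = 0.0221, where 5 genes passed, 0.0614%). The other 2 fallen genes were Inmt and Col8a1, whose 49 UMIs were all in normal lung. The call of Idi1 was lost without normal replicate 1 or 2 or tumor-bearing replicate 1 or 2 (adjusted p from 0.0865 to 0.139), and that of Apoe without any WT animal but tumor-bearing replicate 1 (adjusted p from 0.0924 to 0.281). In endothelial-like cells the 2 calls were Ifit1 and Scgb1a1, although 274 of 7685 genes passed in LAIR1KO (3.57%). The difference between genotypes passed for 1 gene (0.0130%).

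Scgb1a1, the secretoglobin of airway club cells, was the gene called in the most types. In neutrophil-like cells it stood at 100.1, 96.4 and 102 CPM in normal and 382, 289 and 336 CPM in tumor-bearing animals (log2 1.74 ± 0.17, adjusted p = 6.17e-07). In endothelial-like cells the values were 30.8, 36.9 and 60.4 against 178, 244 and 230 CPM (log2 2.38 ± 0.26, adjusted p = 9.61e-05), and in fibroblast-like cells 44.2, 49.3 and 61.6 against 163, 157 and 157 CPM (log2 1.60 ± 0.16, adjusted p = 7.11e-05). In interstitial macrophage-like cells it was 75.5, 104 and 92.6 against 192, 210 and 12061 CPM (log2 5.55 ± 1.15, adjusted p = 0.0422), and 15565 of the 16199 UMIs in tumor-bearing lung were in 1 cell. This call was lost without any normal animal or without tumor-bearing replicate 3, which held that cell. No groups overlapped in these 4 types. B cell-like cells held 8 of its UMIs in the normal group and 61 with tumor. With the top cell removed from each group, the level over the group was 93.9 against 291 CPM in neutrophil-like, 78.7 against 206 in interstitial macrophage-like, 38.7 against 194 in endothelial-like and 42.6 against 154 CPM in fibroblast-like cells.

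**Figure D5:**
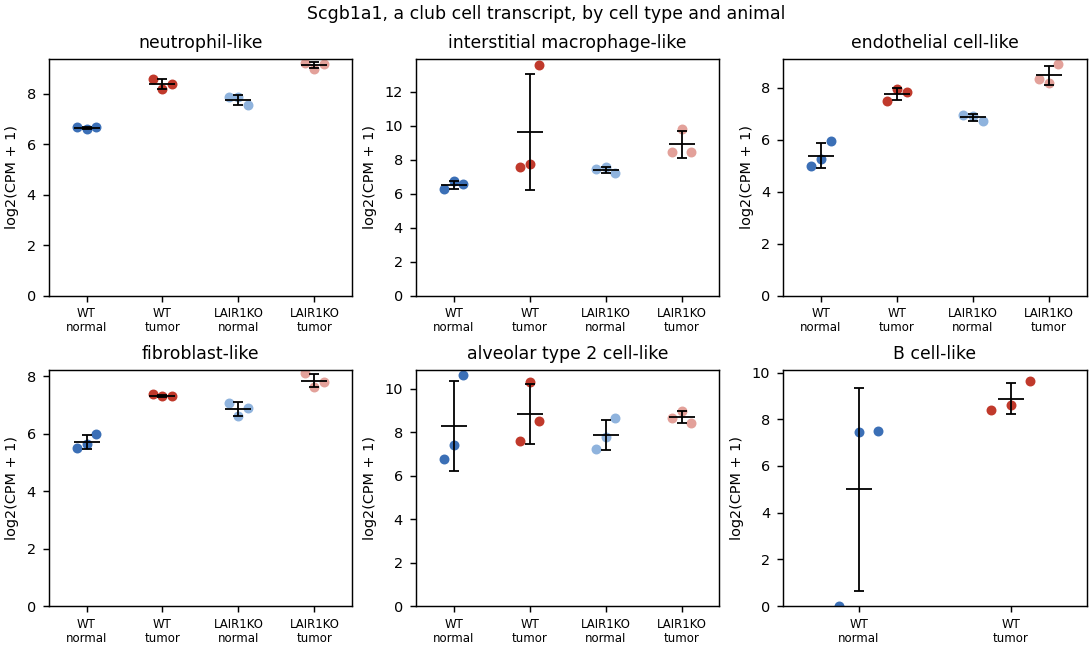
Level of Scgb1a1 (y axis, log2 of CPM plus 1) in each animal (points) by group (x axis) and cell type (panels), with the mean and SD on that scale as bars. WT tumor-bearing animals lie above WT normal animals in neutrophil-like, interstitial macrophage-like, endothelial-like and fibroblast-like cells, and 1 macrophage point at 12061 CPM rests on a single cell.

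The response of Scgb1a1 did not differ detectably between types (edgeR, adjusted p = 0.606), and its mean was 2.07 log2 units (limma voom, adjusted p = 0.191). Both values include the macrophage sum that rests on 1 cell, so they do not show a rise shared by all types. Alveolar type 2-like barcodes held 643 CPM over the normal and 686 CPM over the tumor-bearing group. Of these UMIs, 1249 of 1608 and 852 of 1373 were in 1 cell. Without that cell the levels were 144 and 261 CPM. Scgb1a1 was higher with tumor in LAIR1KO too, by 1.39 in neutrophil-like, 1.64 in endothelial-like and 1.03 log2 units in fibroblast-like cells (adjusted p = 9.87e-06, 0.000376 and 0.00264). Club-like barcodes, which make this transcript, numbered 6 in the WT normal and 23 in the WT tumor-bearing library before hashtags were assigned. The whole club cell list summed to 10.3 to 13.3 UMIs per 10000 in normal and 14.01 to 15.7 in tumor-bearing neutrophil-like cells. That list holds Scgb1a1 itself, at 97.0 CPM over the normal and 310 CPM over the tumor-bearing group. It also holds Hp, which is on the classical monocyte list too. The alveolar type 2 list summed to 8.04 to 9.28 against 7.29 to 8.71 there. The part of free RNA in the rise of Scgb1a1 was not tested.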

How the data were processed

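Lungs were profiled with a 10x Genomics 3' kit, version 3, with hashtag antibodies, per the labels. The authors deposited a count matrix of UMIs per feature and barcode for each library; Cell Ranger 4.0.0, STAR (no version given), R 4.0.0, Seurat 3.2.0 and mm10 are listed per the submitters' processing notes. WT libraries held 25216301 gene UMIs in 3295 barcodes (normal) and 27249807 in 4442 (tumor-bearing). Cells with at least 300 genes and at most 10% mitochondrial UMIs were kept and assigned to animals with HTODemux (Seurat 5.3.0, quantile 0.99). A cell took the type with the largest share of its markers detected (at least 3, lead of at least 0.1). Scrublet doublets stayed in, except in 1 alternative. Sums of UMIs per animal and type, from 10 or more cells, were tested by quasi-likelihood in edgeR 4.0.16 (TMM, filterByExpr), with all 12 animals sharing the spread. B cell-like cells lacked LAIR1KO normal animals with 10 cells and gave WT values only. The difference between types was tested in a joint edgeR fit with the animal as block, and the mean over types with limma 3.58.1 (voom, random block; consensus correlation −0.011). The tests were checked on simulated data.

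Named genes were the 3 risen and 3 fallen autosomal genes of smallest p per type (adjusted p under 0.05, at least 1.5-fold, at least 20 CPM, no overlap), the genes called in the most types, those that differed most between types, and up to 4 members of a list with 2 or more called. Gene models, ribosomal and immune receptor genes and gate markers were passed over, except ribosomal genes under their list and Sftpc, a gate marker named by its rank across types. 1 member of the interferon-stimulated list is not reported here by name. Members and lists were chosen with earlier results of these data known. Lack of overlap was required of the genes of smallest p per type, so for them it adds no evidence. The other named genes were chosen by p in the same data, so for them too it is a description only. The share of all tested genes without overlap is not given. Hashtag numbers only name animals. P-values per type measure only the spread between these animals, all 3 of a group being in 1 library. Those of the joint fits rest on sums of several types from each animal. Gene positions came from GENCODE M21, and promoters from RefSeq (GRCm38.p6). Other settings, including DESeq2 1.42.0, are given at the end.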

Additional observations from a re-analysis of the deposited data

Results flagged for a closer look

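The tumor response differed between cell types in 8 named genes of alveolar type 2-like barcodes by the joint edgeR test over 6 types, with adjusted p = 1e-08 for Ccl4, 0.000207 for Mgl2, 0.00734 for C1qb, 0.0223 for Cd83, 0.0279 for Ccl3, 0.0349 for Ccl5, 0.0413 for Il1b and 0.0427 for C1qa. The log2 change in these barcodes was 5.55, 5.37, 3.66, 1.66, 3.49, 5.56, 2.43 and 2.499 in that order. Not all of the 8 also passed by limma voom, since only 7 genes passed by both.

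The response differed between WT and LAIR1KO lung by the edgeR interaction term in 17 further values. In neutrophil-like cells the adjusted p of this difference was 0.00222 for Oasl2, 0.0275 for Trim30a and 0.0484 for Slfn4, all higher with tumor in WT. It was 0.00126 for Rpl8, 0.038 for Rps3 and 0.0413 for Rps7, all lower with tumor in WT. In interstitial macrophage-like cells it was 0.000852 for Fxyd2, 0.00492 for Prkar2b and 0.0335 for Lyz2, which fell in WT, and 0.014 for Prkcd, 0.0218 for B4galnt1 and 0.0252 for Cd52, which rose. In alveolar type 2-like cells it was 1.35e-05 for Sftpc, 0.0188 for Lyz2 and 0.0315 for Ccl4. It was 0.0221 for Apoe in fibroblast-like and 0.0197 for Ifit1 in endothelial-like cells. The WT groups differ in sex and the LAIR1KO groups do not, so genotype and sex cannot be told apart in these differences.

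Melanoma transcripts appeared in a barcode outside the comparisons, since it had no hashtag. This barcode of the WT tumor-bearing library held 15 UMIs of Pmel, 27 of Dct and 18 of Tyrp1, genes of pigment synthesis. No barcode of the WT normal library passed the same gate, and that library held 12, 2 and 0 UMIs of these genes in 3100 filtered cells, against 33, 32 and 18 in 4291 filtered cells of WT tumor-bearing lung.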

How the results depend on the processing

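The count of autosomal genes past the threshold was 79 in neutrophil-like cells and became 36 with a simple hashtag rule (30 up, 6 down), 52 with a stricter marker gate, 14 with UMIs thinned to the B cell total and 22 to 58 without single animals. The 16 calls in interstitial macrophage-like cells became 50 by DESeq2, 210 with no filter on low counts, 6 with only the WT replicates in the fit, 34 with the replicate block, 98 with the simple hashtag rule, 37 without Scrublet doublets, 60 with types from clusters, 50 with the stricter gate, 10 with sex and mitochondrial chromosomes left out before the fit, 2 when thinned and 3 to 58 without single animals. The 2 in endothelial-like cells became 9 by DESeq2, 128 with no filter, 8 with only WT, 5 with the replicate block, 1 with the stricter gate and 1 to 7 without single animals. The 6 in fibroblast-like cells became 13 by DESeq2, 122 with no filter, 28 with only WT, 15 with the simple hashtag rule, 10 with the stricter gate, 1 with those chromosomes left out, 1 when thinned to the B cell total, 3 when thinned to the lowest median total of the other 5 types and 1 to 4 without single animals. The 12 in alveolar type 2-like cells became 187 with no filter, 19 with only WT, 19 with the simple hashtag rule, 6 with the stricter gate, 0 when thinned to the B cell total, 6 when thinned to the latter total and 6 to 14 without single animals. The 0 in B cell-like cells became 1 by DESeq2, 24 with no filter and 0 to 2 without single animals. The 21 genes that differed between types became 250 with no filter, 10 when thinned and 13 to 43 without single animals. The 75 genes with a mean response became 134 with the simple hashtag rule, 172 without B cell-like cells, and 29 to 62 without single animals. The cause of these differences was not tested. Thinning to that total, and leaving B cell-like cells out of the joint fits, were chosen after seeing the data.

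Named genes held their direction in all alternatives that gave a value, except C1qa in alveolar type 2-like cells, which was −0.0180 with the simple hashtag rule. Of 39 values, 22 to 31 stayed past the threshold without single animals, 39 with relative log expression factors, 30 by DESeq2 (8 had no value), 26 with the simple hashtag rule and 8 when thinned. Oasl2, Ifi27l2a, Slfn4 and Scgb1a1 in neutrophil-like cells and Fxyd2 in interstitial macrophage-like cells passed in all 18 alternatives, while Apoe in fibroblast-like cells passed in 8 of 18, C1qb in 6 of 12, Idi1 in 9 of 16, and Card19 and Scgb1a1 in macrophage-like cells in 9 and 10 of 17. Of the 39, 16 passed without each single animal and 13 were lost without 4 or more of them.

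Hashtag numbers were checked as pairs: the correlation of deviations from the group means ran from −0.22 to 0.37 over types and numbers, so the numbers do not pair animals, and the replicate block is given as a change in counts alone: 79 calls became 54 in neutrophil-like, 6 became 4 in fibroblast-like and 12 became 15 in alveolar type 2-like cells. Depth limited B cell-like cells most, with 866 genes tested and 22% of simulated 2-fold changes recovered.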

Other observations

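Some transcripts shifted by a small amount in many types at once. Ubb, which encodes polyubiquitin, had estimates of −0.31 in neutrophil-like, −0.28 in interstitial macrophage-like, −0.63 in endothelial-like, −0.47 in fibroblast-like, −0.33 in alveolar type 2-like and −0.36 in B cell-like cells. It passed in no type alone, while its mean over types passed by limma voom (log2 −0.38 ± 0.07, adjusted p = 0.000884). H3f3b, a gene of histone H3.3, was alike, with estimates of −0.29, −0.23, −0.38, −0.43, −0.09 and −0.61 in the same order and a mean of −0.33 (adjusted p = 0.00219). Both genes are named after their values were seen. In the fit of the mean, sums of different types from 1 animal counted as nearly independent.

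Other genes pointed in different directions across types without passing in any of them alone. Cxcl2, a chemokine for neutrophils, had an estimate of 1.72 in alveolar type 2-like and −1.38 in fibroblast-like cells, and the test between types gave an adjusted p = 0.00467 by edgeR. Mt2, a metallothionein, had estimates of −2.42 in endothelial-like and 0.66 in neutrophil-like cells (adjusted p = 0.00303 between types).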
